A study of Mus musculus with 18 samples.

Results

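The H2 genes are the mouse genes of the major histocompatibility complex. They were taken as every gene of the deposited mm10 annotation on chromosome 17 whose name begins with H2-, which gave 40 of 35857 genes. H3K9me3 at these genes was read from peak lists of mouse embryonic stem cells (mESCs) of the E14TG2a line, grown in serum with LIF. There were 2 libraries each of wild-type, *Uhrf1* KO and *Dhx9* KO cells, and a peak was assigned to a gene when it touched a transcript or the 5 kb on either side, a stretch called the gene window below. The study's methods describe the *Uhrf1* KO cells as CRISPR-Cas9 lines grown from single cells of an mESC line that carries an inducible heterochromatin reporter. The labels do not say which clone a library came from, nor how the *Dhx9* KO cells were made, so differences between clones and effects of the deletion cannot be told apart.

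UHRF1 binds hemimethylated DNA and methylated H3K9 and recruits the maintenance DNA methyltransferase DNMT1, and DHX9 is a helicase that unwinds RNA and DNA structures. H3K9me3 marks heterochromatin and covers many repeats and clustered gene families in mESCs. Classical class I molecules (H2-K1, H2-D1) show peptides from inside the cell to cytotoxic T cells, class II molecules show peptides taken up from outside to helper T cells, and the class Ib genes of the Q, T and M groups encode more specialised or less well understood relatives. Class I and class II genes are expressed at low level or not at all in mESCs.

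The lists hold reads only inside called peaks and no expression values, so neither the deletions nor the cell type could be checked against them. They contain between 70195 and 125453 peaks per library, and between 6703081 and 20875020 ChIP reads in those peaks. The lowest number of both belongs to *Uhrf1* KO replicate 1, and *Uhrf1* KO replicate 2 has 93916 peaks and 16966576 reads. Background reads also differ between the lists. Of the 9523 peaks with the same limits in both wild-type lists, 100% have the same number of background reads, against 4.29% of 2052 and 2.27% of 6439 such peaks shared by wild-type replicate 1 with *Uhrf1* KO replicates 1 and 2, whose background counts were lower (median ratio 0.607 and 0.600). *Dhx9* KO and wild-type lists share their background reads in 100% of such peaks. For peaks called against that background, genotype and background cannot be told apart. Reads in peaks depend on how much was called and are no measure of sequencing depth, which the methods say was evened out between libraries before peak calling.

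A pair of stretches shows the range of H3K9me3 over these genes, one under a peak in all 6 libraries and one whose peak was lost in *Uhrf1* KO cells. Each is the middle 300 bases of the part shared by a peak of both wild-type libraries, from the reference genome (GRCm38.p6, plus strand), with CpG dinucleotides in capitals. The first, at chr17:36105851-36106150, lies between genes beside the pseudogene H2-T-ps and comes from a peak with a wild-type log2 fold of 1.99 and 2.04, whose lower value is the highest among H2 peaks in regions kept in every library. It is annotated as repeat over 94.7% of its length and holds 8 CpG dinucleotides. The second, at chr17:36030851-36031150, lies across an exon of H2-T23, contains no annotated repeat and holds 1 CpG.
H2-T-ps: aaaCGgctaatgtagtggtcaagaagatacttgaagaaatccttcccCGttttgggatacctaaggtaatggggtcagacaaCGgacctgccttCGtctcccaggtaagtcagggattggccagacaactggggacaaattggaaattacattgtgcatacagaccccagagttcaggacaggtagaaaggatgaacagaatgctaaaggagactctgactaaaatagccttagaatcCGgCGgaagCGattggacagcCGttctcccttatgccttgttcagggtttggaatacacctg
H2-T23: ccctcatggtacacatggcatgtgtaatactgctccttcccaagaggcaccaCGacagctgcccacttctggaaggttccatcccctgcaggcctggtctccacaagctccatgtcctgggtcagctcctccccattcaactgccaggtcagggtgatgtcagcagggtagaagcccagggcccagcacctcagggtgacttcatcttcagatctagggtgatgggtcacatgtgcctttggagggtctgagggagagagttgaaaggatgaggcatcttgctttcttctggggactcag

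In wild-type cells, peaks lay over most H2 genes. A peak was found at 36 and 37 of the 40 genes, and 34 genes (85.0%) had one in both libraries, against 59.9% of the 32960 genes outside chromosome 2 and 50.3% of the 183 other genes between the first and the last H2 gene. The median share of the gene window under a peak was 30.0% and 35.6% for H2 genes, and 8.96% and 8.37% for all other genes. Ranked by the mean of both wild-type libraries, 36 of 40 H2 genes were above the median gene, and 9 were among the top 10%. A lower share of the H2 windows was called in both *Uhrf1* KO libraries than in either wild-type library, and the *Dhx9* KO libraries lay on both sides of the wild-type values.

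**Figure D1:**
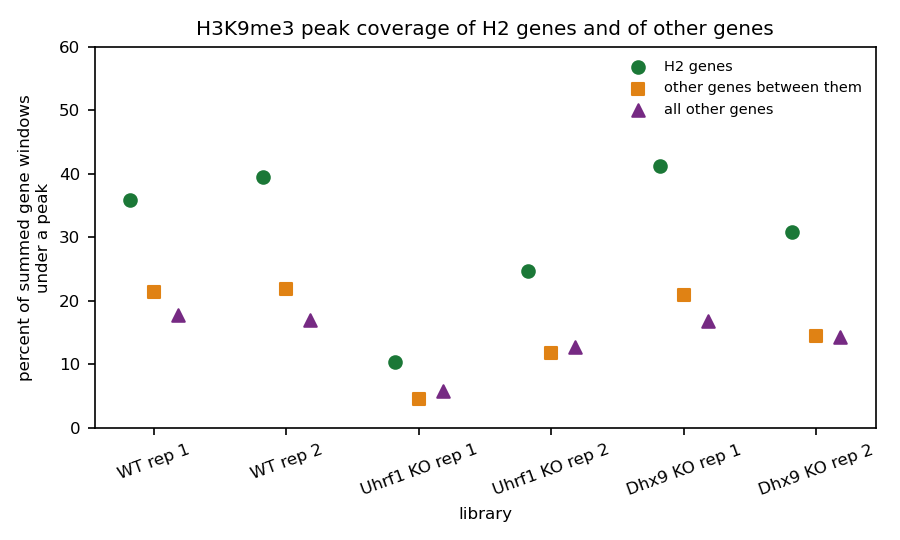
Percent of the summed gene windows (gene and 5 kb on each side, vertical axis) under an H3K9me3 peak in each of the 6 libraries (horizontal axis), for the 40 H2 genes, the 183 other genes between them and 32920 other genes. H2 genes lie at 35.8% and 39.5% in wild-type, 10.4% and 24.7% in *Uhrf1* KO and 41.3% and 30.9% in *Dhx9* KO libraries, and above both other sets in every library.

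Over the summed windows, the share under a peak was 35.8% and 39.5% in wild-type cells, 10.4% and 24.7% in *Uhrf1* KO cells and 41.3% and 30.9% in *Dhx9* KO cells. For all other genes it was 17.7% and 16.9%, 5.75% and 12.7%, and 16.8% and 14.3%. The lower share in *Uhrf1* KO libraries was thus found over H2 genes and over the remaining genes. These shares were compared without a test, since with 2 libraries against 2 the smallest p of an exact two-sided permutation test is 0.333.

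The classes differed in how much of their windows was called. The H2-Q genes, class Ib genes next to H2-D1, had the highest wild-type medians of all classes, 65.9% and 72.5%. H2-Q6 was under a peak over 100% of its window in both wild-type libraries. H2-Q10, whose product is secreted by the liver, had 77.9% and 79.9%, H2-Q7 80.7% and 72.5%, H2-Q5 65.9% and 67.6%, and H2-Q4 50.4% and 72.9%. H2-Q2 had 17.7% and 66.7% and H2-Q1 0.576% and 26.8%, so these 2 differed more between the wild-type libraries than the other 5.

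Among the H2-T genes and H2-Bl, also class Ib, wild-type medians were 50.8% and 47.3%. H2-Bl had 75.4% and 74.0%, the pseudogene H2-T-ps 63.8% and 59.6%, H2-T10 60.2% and 47.3% and H2-T3, which encodes the thymus leukaemia antigen, 50.8% and 59.0%. H2-T24 (27.0% and 21.8%), H2-T22 (23.3% and 21.9%) and H2-T23 (20.4% and 31.4%) were lower. H2-T23 encodes Qa-1, a ligand of receptors on natural killer cells.

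The 12 H2-M class Ib genes, at the telomeric end of the complex, ranged widely. H2-M10.2 had 67.7% and 51.1% in wild-type cells, H2-M10.4 54.6% and 56.1%, H2-M10.3 49.3% and 28.3% and H2-M10.5 45.0% and 30.0%. H2-M10.6 (29.9% in both), H2-M10.1 (30.1% and 10.5%), H2-M2 (23.5% and 17.2%), H2-M11 (16.4% in both) and H2-M3 (12.6% and 14.0%), which presents formylated bacterial peptides, were lower. H2-M9 and H2-M5 had a peak in wild-type replicate 2 only (26.2% and 17.4%), and H2-M1 had none in wild-type cells.

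The class II genes that encode antigen-presenting chains had wild-type medians of 29.8% and 39.4%. The pseudogene H2-Ea-ps had the most (54.3% and 61.1%), followed by H2-Eb2 (46.3% and 47.1%), H2-Ab1 (27.0% and 39.4%) and H2-Eb1 (29.8% and 33.6%). The α chain gene H2-Aa had the least, 14.6% and 16.0%. Of the genes for chains that load or edit class II peptides, H2-Ob had 51.4% and 58.5%, H2-Oa 48.4% and 45.3%, H2-DMb1 43.5% and 70.7% and H2-DMb2 19.1% and 43.4%. H2-DMa had 7.58% in replicate 1 and none in replicate 2.

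The genes grouped here as class Ia, the classical H2-K1 and H2-D1 with H2-K2, were not alike. H2-K1 had 43.3% and 30.7% of its window under a peak in wild-type cells, H2-K2 had 12.7% and none, and H2-D1 had none and 37.5%. H2-Ke6, a dehydrogenase gene that carries the prefix only for its place beside H2-K, had 9.71% and 11.4%, from 1 peak downstream of the gene.

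**Figure D2:**
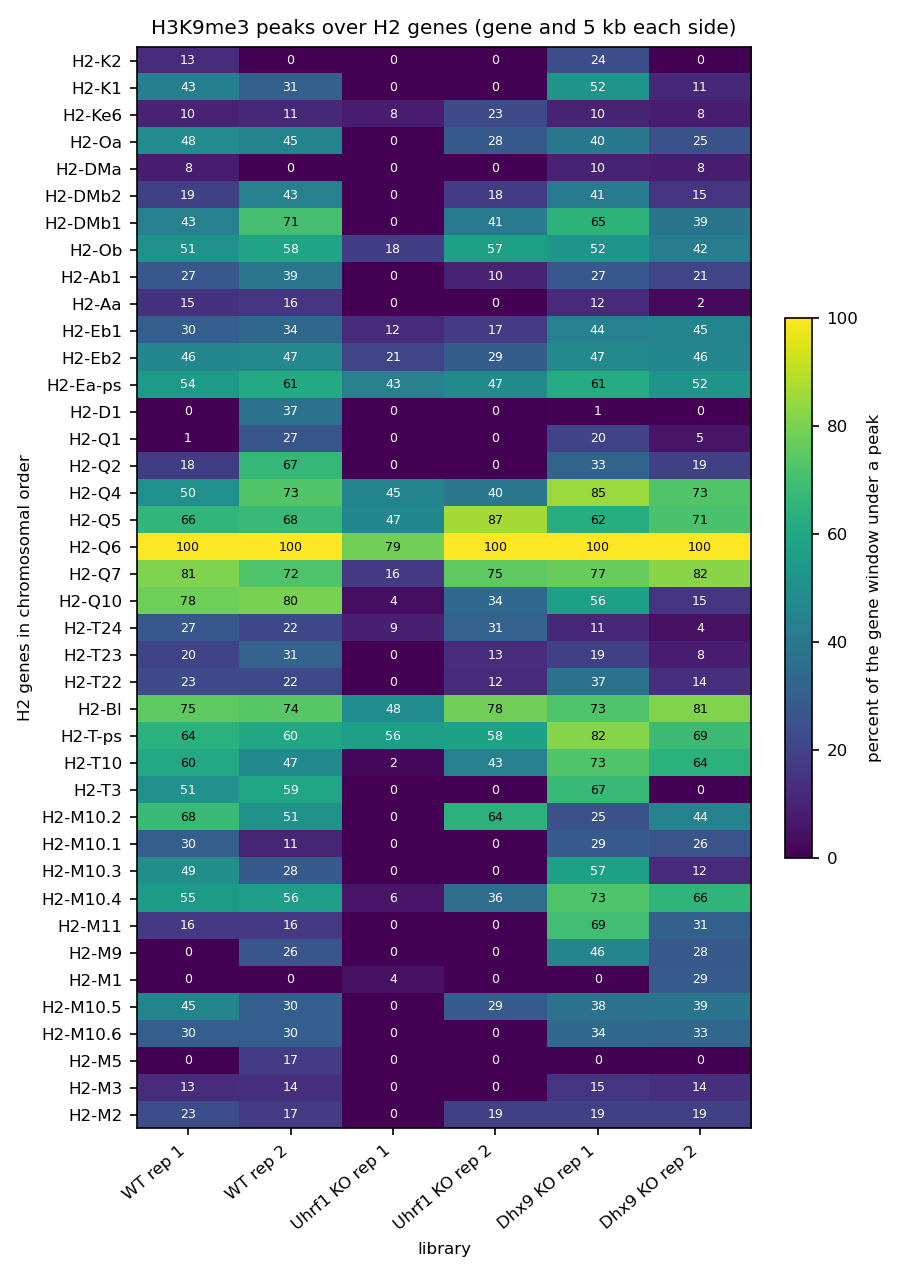
Percent of each gene window (gene and 5 kb on each side) under an H3K9me3 peak, for the 40 H2 genes in chromosomal order (rows) in the 6 libraries (columns), with the value, rounded to whole percent, in each cell. H2-Q6 reaches 100% in 5 libraries and 78.6% in *Uhrf1* KO replicate 1, and 10 genes with a peak in both wild-type libraries show 0 in both *Uhrf1* KO columns.

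*Uhrf1* KO cells were compared with wild-type cells to see how H3K9me3 at these genes fares without UHRF1. In *Uhrf1* KO cells a peak was found at 16 and 24 of the 40 genes. Of the 34 H2 genes with a peak in both wild-type libraries, 10 (29.4%) had none in either *Uhrf1* KO library, against 17.2% of all 19741 such genes and 28.3% of the 92 such genes that lie between H2 genes. A further 9 had a peak in *Uhrf1* KO replicate 2 only, and 15 had one in both. Among the 19741 genes, 4445 had a peak in 1 *Uhrf1* KO library and 11901 in both. None of the 40 was gained, against 2.78% of the 9861 genes with no peak in wild-type cells, a class to which 1 H2 gene (H2-M1) belongs. In replicate 1, 19 of the 34 genes had no peak, and in replicate 2 alone 10 had none, so without replicate 2 the count of lost genes was 19.

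The lost genes came from several classes. They were H2-K1 of class Ia, H2-Aa of class II, H2-Q1 and H2-Q2, H2-T3, and H2-M3, H2-M10.1, H2-M10.3, H2-M10.6 and H2-M11. Of the H2-M genes with a peak in both wild-type libraries, 5 of 9 were lost and 1, H2-M10.4, was kept in both *Uhrf1* KO libraries. Of the H2-Q genes, 2 of 7 were lost and 5 kept, and of the H2-T genes and H2-Bl 1 of 7 was lost and 4 kept. Among the antigen-presenting class II chains 1 of 5 was lost and 3 kept, and among the peptide-loading chains none of 4 was lost and 1, H2-Ob, was kept in both.

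The genes kept in both *Uhrf1* KO libraries ranged from a small part to the whole of the window. H2-Q6 had 78.6% and 100% of its window called in *Uhrf1* KO cells, H2-T-ps 56.5% and 58.0%, H2-Bl 48.4% and 78.3%, H2-Q5 46.8% and 86.7%, H2-Q4 45.1% and 39.7% and H2-Ea-ps 43.4% and 47.5%. In replicate 1 the next highest gene was H2-Eb2. The other 9 kept genes were H2-Ke6 (8.05% and 23.0%), H2-Ob (18.4% and 56.9%), H2-Eb1 (12.5% and 17.3%), H2-Eb2 itself (20.8% and 29.3%), H2-Q7 (16.4% and 75.2%), H2-Q10 (3.89% and 34.3%), H2-T24 (8.94% and 31.4%), H2-T10 (2.12% and 43.5%) and H2-M10.4 (5.96% and 35.8%).

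Merging overlapping peaks of the 4 libraries gave 69 regions over H2 genes, 53 of them with a peak in both wild-type libraries. Of these 53, 20 (37.7%) had no peak in *Uhrf1* KO cells, against 24.2% of 79799 regions in the genome. With the same number of peaks taken from each list it was 8 of 24 (33.3%, genome 18.2%), and with a log2 fold of at least 1 it was 5 of 18 (27.8%, genome 21.6%). Of the 53 regions, 15 had a peak in *Uhrf1* KO replicate 2 only and 1 in replicate 1 only, and 17 had one in all 4 libraries. In the genome, 40511 of the 79799 regions had one in all 4. Without *Uhrf1* KO replicate 2 the count of lost regions was 35 of 53 (66.0%, genome 47.9%). None of the 17 H2 regions called in both *Uhrf1* KO libraries was gained, against 8.51% of such regions in the genome, and 17 are too few to compare with that share. Measured in 200 bp bins, 35.0% of the 175 kb of H2 windows called in both wild-type libraries was called in neither *Uhrf1* KO library (background 29.8%).

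The lost regions were shorter and had fewer reads than those in all 4 libraries. Their length ranged from 800 to 9200 bp with a median of 2400 bp, against a median of 7600 bp for the 17 regions in all 4 libraries. They held between 54 and 602 ChIP reads (median 99.5) in wild-type replicate 1 and between 38 and 506 (median 78.5) in replicate 2, whereas the 17 regions had medians of 335 in both. In the genome the median lengths were 3400 bp for lost regions and 5200 bp for regions in all 4 libraries. A lost region joins wild-type peaks only, whereas a region in all 4 libraries joins peaks of both genotypes. Part of these differences is therefore set by the merging, and how much was not tested. The longest lost region, 9200 bp across H2-T3, gave 602 and 506 ChIP reads beside 443 and 509 background reads in wild-type cells, with a log2 fold of 0.66 and 0.21, and *Uhrf1* KO cells lacked it in both libraries. The strongest lost region in wild-type cells was the 800 bp over H2-T23 whose middle is printed above, where 88 and 68 ChIP reads gave a log2 fold of 1.98 and 1.66. By the position of the centre, 10 of the 20 lost regions lay in introns, 8 between genes, 1 in an exon and 1 within 1 kb of a transcript start (H2-Q2), and of the 17 regions in all 4 libraries 7 lay between genes, 5 in introns, 4 at a start and 1 in a UTR.

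**Figure D3:**
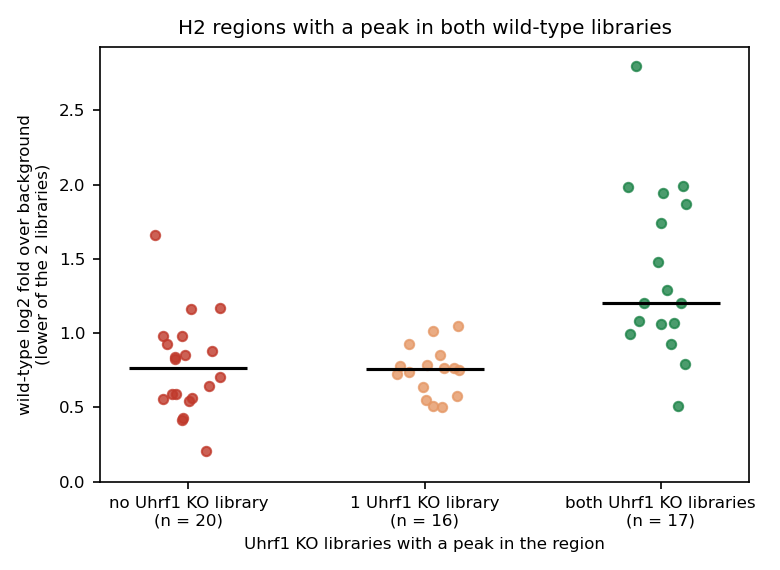
Wild-type log2 fold of ChIP over background (vertical axis, lower of the 2 libraries) of the 53 H2 regions with a peak in both wild-type libraries, split by how many *Uhrf1* KO libraries have a peak there (horizontal axis), with 1 point per region and a line at the median. The medians are 0.76, 0.76 and 1.20 for none, 1 and both libraries, the groups overlap, and the highest point, 2.80 at H2-Bl, comes from a peak outside the H2 windows.

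The log2 fold of ChIP over background in wild-type cells, taken from the strongest peak of a region as the lower of the 2 libraries, had a median of 0.76 for the 20 lost regions (0.21 to 1.66), 0.76 for the 16 regions with a peak in 1 *Uhrf1* KO library and 1.20 for the 17 regions in all 4 (0.51 to 2.80). The value of 2.80 belongs to the H2-Bl region and comes from a peak outside every H2 window. With only peaks that touch such a window the medians were 0.70, 0.76 and 1.20, and the highest value in all 4 libraries was 1.99. In the genome the medians from the strongest peak were 0.71 for lost regions and 1.29 for regions in all 4 libraries. The lost regions had a lower median than the regions in all 4 libraries over H2 genes and over the genome. A region in all 4 libraries can join more wild-type peaks from which the strongest is taken, so part of this difference may also come from the merging. Regions over H2 genes that were lost held a median of 7.33 CpG dinucleotides per kb and 15.5% soft-masked repeat sequence, against 16.2 per kb and 41.6% for those in all 4 libraries. Over all regions in the genome the corresponding values were 10.0 and 10.1 CpG per kb and 20.5% and 37.1% repeat.

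In *Dhx9* KO cells the H2 genes largely kept their peaks, as most genes did. A peak was found at 38 and 36 of the 40 genes. Of the 34 genes with a peak in both wild-type libraries 33 had one in both *Dhx9* KO libraries and none was lost (background 2.91%). Of all 19741 such genes, 16812 had one in both *Dhx9* KO libraries. No H2 gene was gained (background 5.21%), H2-M1 having a peak in *Dhx9* KO replicate 2 only. The exception was H2-T3, with 67.2% of its window called in *Dhx9* KO replicate 1 and none in replicate 2. H2-M11 had 16.4% of its window called in both wild-type libraries and 69.4% and 31.2% in *Dhx9* KO libraries. H2-Q10 had 56.4% and 14.9%, below both wild-type values, and H2-T24 11.2% and 4.47%, also below both. The same held at H2-Oa, H2-Aa, H2-T23 and H2-M10.2. Both *Dhx9* KO values lay above both wild-type values at H2-M11, H2-Eb1, H2-T-ps, H2-T10, H2-M10.4, H2-M10.6 and H2-M9. H2-M9, with a peak in 1 wild-type library, had 45.6% and 27.8%. With 2 libraries against 2, values that separate fully have a p of 0.333 in an exact two-sided permutation test. How many of all genes separate in this way was not counted, so these lists are no result about the H2 genes.

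Of the 48 H2 regions with a peak in both wild-type libraries in this comparison, 38 had a peak in all 4 libraries and 9 in *Dhx9* KO replicate 1 only. A single one (1, 2.08%) was lost, against 6.97% of such regions in the genome. In the genome, 58214 of 78419 such regions had a peak in all 4 libraries. The lost H2 region was 1400 bp in an intron of H2-Ob, where the wild-type libraries held 54 and 38 ChIP reads. It was also among those lost in *Uhrf1* KO cells. None of the 41 H2 regions called in both *Dhx9* KO libraries was gained, against 8.74% of such regions in the genome. With any of the 4 libraries left out 1 to 3 were (2.44% to 6.98%, genome 14.4% to 22.3%). With the same number of peaks taken from each list 4 of 23 regions (17.4%, genome 12.0%) were lost and 3 of 18 gained (16.7%, genome 11.3%). With a log2 fold of at least 1 it was 6 of 17 lost (35.3%, genome 15.0%) and 2 of 11 gained (18.2%, genome 10.4%). Without *Dhx9* KO replicate 1 the count of lost regions was 11 of 49 (22.4%, genome 17.6%). Without wild-type replicate 1 it was 6 of 57 (10.5%, genome 15.0%), and without replicate 2 it was 5 of 56 (8.93%, genome 14.0%). In bins, 4.90% of the H2 sequence called in both wild-type libraries was called in neither *Dhx9* KO library (background 12.4%).

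Where H2 regions were called in every library, ChIP read counts could be compared. A region was tested if each library had at least 80% of it called, with edgeR's quasi-likelihood test on all such regions of the genome and the called length as an offset. The median length of the tested regions was 3200 bp in the *Uhrf1* KO comparison and 3800 bp in the *Dhx9* KO comparison. Of 2528 regions tested in *Uhrf1* KO against wild-type cells, 8.74% passed an adjusted p of 0.05, but only 1 H2 region could be tested. It lies at chr17:36099601-36111800, covers H2-T-ps and reaches the window of its neighbour H2-T10, and contains the first sequence printed above. The *Uhrf1* KO libraries had 877 and 2616 ChIP reads there, on either side of the wild-type libraries with 1738 and 1697. Its log2 fold change was 0.13 ± 0.13 (SE; n = 2 per genotype, edgeR adjusted p = 0.563).

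In *Dhx9* KO against wild-type cells, 6 H2 regions could be tested and none passed, against 0.596% of 4701 regions. Their log2 fold changes ranged from -0.07 to 0.10, with SE between 0.12 and 0.22. The region over H2-Q6 and H2-Q7, 28400 bp long, had 2809 and 2585 ChIP reads without the deletion and 2595 and 2906 with it, a log2 fold change of -0.01 ± 0.12 (SE, edgeR adjusted p = 0.986). The region at H2-Bl, 30800 bp long, held 3492 and 3242 reads against 3339 and 3672, a log2 fold change of 0.06 ± 0.13 (SE, edgeR adjusted p = 0.916). No H2 region had an unadjusted p under 0.05 in these 6, and DESeq2 also called 0 of 6. With *Dhx9* KO replicate 2 left out, 1 of the 6, the second region at H2-T-ps and H2-T10 (chr17:36116001-36139200), passed at a log2 fold change of 0.26, against 0.10 with all libraries. In that fit 15.6% of all regions passed, and the lone knockout library was assumed to vary like the wild-type libraries, which alone gave the spread.

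In the direct comparison of *Uhrf1* KO and *Dhx9* KO cells, 1 H2 region was tested, over the start of H2-Q4 and upstream of it, with 343 and 962 reads in *Uhrf1* KO and 444 and 626 in *Dhx9* KO cells. Its log2 fold change was 0.24 ± 0.15 (SE, edgeR adjusted p = 0.416), against 1.59% of 2011 regions past the threshold. This comparison uses the same knockout libraries as the 2 above.

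**Figure D4:**
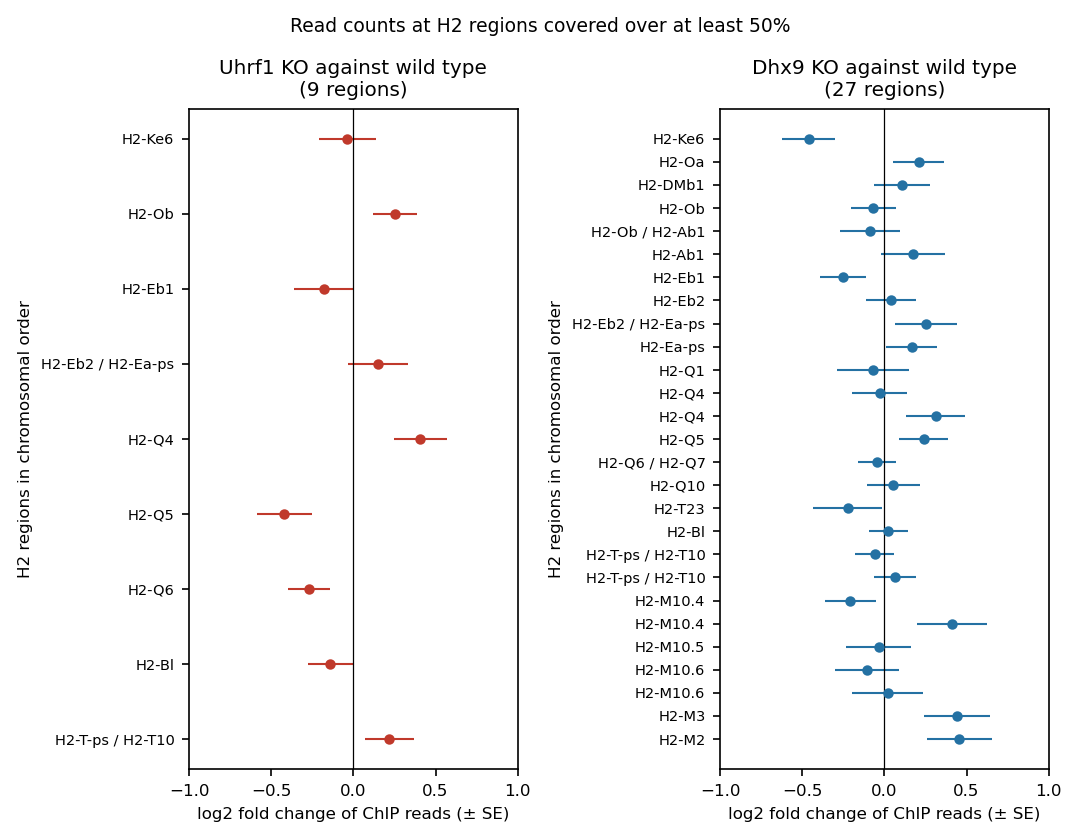
Log2 fold change of ChIP reads (horizontal axis, point ± SE, n = 2 libraries per genotype) at the H2 regions (rows, in chromosomal order) covered by peaks over at least 50% of their length in each library, for *Uhrf1* KO (left, 9 regions) and *Dhx9* KO (right, 27 regions) against wild-type cells. None passed an adjusted p of 0.05, and the values lie between -0.46 and 0.46.

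When regions covered over at least 50% were admitted, 9 H2 regions entered the *Uhrf1* KO comparison, 27 the *Dhx9* KO comparison and 8 the direct one, and edgeR called 0 in each (background 1.16%, 0.131% and 0.0855%). At an unadjusted p under 0.05 in edgeR there were 3 in each comparison, against 18.9%, 10.5% and 16.9% of all regions tested. In *Uhrf1* KO cells the largest differences were at H2-Q4 (log2 fold change 0.41 ± 0.16, SE, edgeR adjusted p = 0.193) and at H2-Q5 (-0.42 ± 0.17, SE, edgeR adjusted p = 0.202), and these 2 neighbours had opposite signs. The median over the 9 regions was -0.04 in *Uhrf1* KO and over the 27 regions 0.02 in *Dhx9* KO cells. Over all regions tested at this coverage the medians were 0.000823 and -0.000491. The scaling of the libraries to each other (TMM) places most regions near 0. These medians therefore cannot show a change shared by most regions, and the H2 values are relative to it.

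RefSeq start positions (GRCm38.p6) were found for 32 of the 40 H2 genes. The first base was under a peak at 12 and 14 of these in wild-type, at 2 and 8 in *Uhrf1* KO and at 17 and 14 in *Dhx9* KO cells. Of 24701 starts outside chromosome 2, 1 per gene, 18.4% and 17.4% were under a peak in wild-type, 5.16% and 13.1% in *Uhrf1* KO and 17.2% and 14.1% in *Dhx9* KO cells. At 11 it was under a peak in both wild-type libraries, and H2-Q6 was the one gene with a peak there in all 6. The promoter windows, 300 bases each, held a median of 3 CpG dinucleotides, against 7 for the 32851 promoters of the RefSeq table. The letters CCAAT, the core of the Y box of class I and class II promoters, were found on either strand in 28 of 32 (87.5%) windows, against 37.4% of all promoters. A match anywhere in the window was counted, so it need not be a Y box, and H2-Ke6 is among the 28.

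The 250 bases upstream of 3 starts show the range, chosen after the peaks at the starts were known, with CCAAT or its complement ATTGG in capitals. H2-Q6 (chr17:35424600-35424849, plus strand) had a peak at its start in all 6 libraries. H2-M10.1 (chr17:36326151-36326400, minus strand) had one in both wild-type and both *Dhx9* KO libraries and in neither *Uhrf1* KO library. H2-D1 (chr17:35262844-35263093, plus strand), a classical class I gene, had none in any.
H2-Q6: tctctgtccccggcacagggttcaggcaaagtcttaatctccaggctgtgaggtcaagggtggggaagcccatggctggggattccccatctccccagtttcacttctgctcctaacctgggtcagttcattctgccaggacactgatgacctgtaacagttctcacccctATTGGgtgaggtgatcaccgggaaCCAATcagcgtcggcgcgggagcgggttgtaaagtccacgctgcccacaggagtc
H2-M10.1: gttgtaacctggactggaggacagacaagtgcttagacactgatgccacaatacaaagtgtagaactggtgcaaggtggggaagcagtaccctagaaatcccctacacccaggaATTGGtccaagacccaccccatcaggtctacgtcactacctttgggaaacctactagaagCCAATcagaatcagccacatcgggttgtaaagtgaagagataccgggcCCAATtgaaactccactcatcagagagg
H2-D1: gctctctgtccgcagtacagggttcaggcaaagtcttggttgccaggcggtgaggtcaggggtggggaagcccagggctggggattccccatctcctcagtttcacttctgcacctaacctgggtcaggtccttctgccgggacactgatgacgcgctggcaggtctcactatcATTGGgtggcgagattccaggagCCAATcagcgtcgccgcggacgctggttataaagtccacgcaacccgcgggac

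The promoter window of H2-D1 holds 19 CpG dinucleotides, that of H2-Q6 11 and that of H2-M10.1 3. The whole gene windows of the 10 genes lost in *Uhrf1* KO cells held a median of 6.80 CpG per kb (2.79 to 15.8), against 14.7 (6.34 to 45.3) for the 15 genes kept in both, and these ranges overlap.

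Some H2 genes are close copies of each other, and a read that matches several copies was placed at 1 of them. To see how far this reaches, all 150-base stretches of each gene window, the length of a read, were looked for elsewhere on chromosome 17, on both strands. The median share found more than once was 0.678%, and 5 of the 40 genes had at least 10%. H2-Q7 had 36.4%, H2-M2 18.8%, H2-T24 18.6%, H2-Q6 16.9% and H2-Q5 16.9%, so reads at these 5 may come from a copy and their values are uncertain. Only exact matches on chromosome 17 were counted. Copies on other chromosomes and copies that differ in a base were missed, so reads at other H2 genes may be misplaced as well. The 10 genes lost in *Uhrf1* KO cells had a median of 0.116%, and the 15 kept in both 4.86%. How far placement of reads among copies bears on which genes were kept was not tested.

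Genes listed under antigen processing, which include some class I-like genes such as Fcgrt, lie mostly elsewhere in the genome. Of the 27 genes examined, 13 (48.1%) had a peak in both wild-type libraries, against 59.9% of all genes. In *Uhrf1* KO cells 3 of these 13 (23.1%, background 17.2%) were lost, a share near that of all genes, namely Irf1, a transcription factor of the interferon response, Fcgrt, the neonatal Fc receptor, and Psmb10, a subunit of the immunoproteasome. Another 5 were kept in both *Uhrf1* KO libraries, among them Tap2, a subunit of the peptide transporter, the class I transactivator Nlrc5 and the class II transactivator Ciita, with the peptidase Erap1 and the protease Ctss. In *Dhx9* KO cells Psmb10 was lost (1 of 13, 7.69%, background 2.91%). The protease Ctsl was the 1 gene of the 27 that gained a peak. Of the 9861 genes with no peak in wild-type cells, 5.21% gained one. Both are counts of 1 gene, too few to compare with these shares. The peptide transporter and immunoproteasome genes Tap1, Psmb8 and Psmb9, which lie among the class II genes, had a peak in both wild-type and both *Dhx9* KO libraries and in 1 *Uhrf1* KO library.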

How the data were processed

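H3K9me3 ChIP-seq was deposited as 1 peak list per library for 6 libraries (2 per genotype), and 12 other samples were not analysed here. The authors aligned reads with Bowtie2 2.3.4.3 to GRCm38/mm10 and called peaks in each library with epic2 in 200 bp bins (the submitters' processing notes list SICER 0.0.51). Per the methods, libraries were first thinned to similar read numbers, duplicates stayed in and the background was input of wild-type cells. Background counts in both Uhrf1 KO lists depart from those in the other 4, as given above. The deposited lists hold, for each peak, raw read counts of the ChIP and of its background, the caller's p-value and false discovery rate, the log2 fold between ChIP and background, and a score. The deposited score entered no result.

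Peaks were merged where they overlapped or adjoined (Python 3.11.15, pandas 2.3.3, numpy 2.4.6). A region or gene counted as lost where a peak was present in each wild-type library but absent from each knockout library, and as gained in the reverse case. Chromosome 2 was left out of gene backgrounds, since its annotation is shifted by the reporter insertion, so 27 of the 29 antigen processing genes found (30 listed) were used. The quasi-likelihood test of edgeR 4.0.16 (R 4.3.3) was run, with TMM scaling, an offset for called length and Benjamini-Hochberg adjustment, over the counts of regions with a peak in every library, and DESeq2 1.42.0 was the alternative. On simulated data, 190 (Uhrf1 KO against wild type) and 191 (Dhx9 KO) of 200 regions changed 2-fold were recovered among 2528 and 4701, with 13 and 6 false calls. The simulation held the dispersion fixed and gave every library the full region as called length. It therefore does not give the power of the test on the real lists. The filter on low counts removed 0 regions. GC content, CpG, repeats and sequences come from GRCm38.p6, and 32 of 32 promoter sequences equalled the genome. Every H2 gene is named; other genes were named where a region or gene was lost, gained or kept. The members, lists and tests were chosen with earlier results of these data known. The methods call the 2 libraries of a genotype biological replicates. SE and p-values combine the spread between them with a variance estimate shared over all regions tested. Same-numbered libraries did not deviate together.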

Additional observations from a re-analysis of the deposited data

How the results depend on the processing

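Counts of H2 genes and regions moved with the peak threshold. With a false discovery rate of at most 1e-10, 11 of 27 regions (40.7%, genome 24.9%) were lost in Uhrf1 KO cells (20 as reported). In Dhx9 KO cells 3 of 24 (12.5%, genome 11.3%) were lost (1 as reported). At this threshold 22 genes had a peak in both wild-type libraries (34 as reported) and 1 gene was lost in Dhx9 KO cells (0 as reported). With a log2 fold of at least 1, 5 of 18 regions (27.8%, genome 21.6%) were lost in Uhrf1 KO cells. In Dhx9 KO cells it was 6 of 17 (35.3%, genome 15.0%). Then 18 genes had a peak in both wild-type libraries, and 6 (10 as reported) were lost in Uhrf1 KO and 3 in Dhx9 KO cells. Gained were 1 of 13 regions (7.69%, genome 17.3%) in Uhrf1 KO and 2 of 11 (18.2%, genome 10.4%) in Dhx9 KO cells (0 as reported). With the 70195 strongest peaks of each list, 8 of 24 and 4 of 23 regions were lost (33.3% and 17.4%, genome 18.2% and 12.0%). Gained were 1 of 15 and 3 of 18 (6.67% and 16.7%, genome 17.7% and 11.3%). There 21 genes had a peak in both wild-type libraries and 5 were lost in Uhrf1 KO cells. With no flank 12 of 35 regions (34.3%, genome 24.2%) were lost in Uhrf1 KO cells. With a flank of 20 kb 4 genes were lost in Uhrf1 KO cells. At that flank 1 of 63 regions (1.59%, genome 8.74%) was gained in Dhx9 KO cells. Leaving out each library in turn gave 21 to 35 lost regions in Uhrf1 KO cells (40.4% to 66.0%, genome 25.7% to 47.9%). It gave 0 to 1 gained regions (0% to 3.13%, genome 12.8% to 21.1%) and 10 to 19 lost genes there. In Dhx9 KO cells 1 to 11 regions were lost (2.00% to 22.4%, genome 14.0% to 17.6%). There 1 to 3 regions were gained (2.44% to 6.98%, genome 14.4% to 22.3%) and 0 to 1 genes lost. Genes were counted at these settings over H2 genes only, so they have no share over all genes beside them. For these moves the cause was not tested.

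No setting but 1 called an H2 region in the read counts: without Dhx9 KO replicate 2, 1 passed (range 0 to 1). Over all regions the counts past the threshold were 221 (Uhrf1 KO), 28 (Dhx9 KO) and 32 (Uhrf1 KO against Dhx9 KO). They were 111 with DESeq2 for Uhrf1 KO, 0, 11 and 0 with equal library sizes, 15 and 61 with no length offset for the last 2 comparisons, 13 with 50% coverage for the last, 0, 2 and 1 with all regions, 51, 8 and 15 with all 6 libraries in one fit, which held no H2 region, and 55 to 355, 9 to 734 and 5 to 59 with each library left out. With the replicate number as a block they were 212, 80 and 3, and same-numbered libraries correlated at 0.065, -0.069 and -0.004, so the numbers do not pair the samples. Equal library sizes moved the median log2 fold change of all regions to -0.23 in Uhrf1 KO cells, where the H2-T-ps region was at -0.03 (-0.06 to 0.29 with a library left out). With no length offset H2-Q1 was at 0.07, H2-Q6 and H2-Q7 at 0.03 and H2-M10.6 at 0.17 in Dhx9 KO cells, with the opposite sign. With a library left out, H2-Q1 ranged from -0.22 to 0.15, H2-Q6 and H2-Q7 from -0.03 to 0.02, H2-Bl from -0.01 to 0.14, the second H2-T-ps and H2-T10 region from -0.06 to 0.26, and the regions at H2-M10.6 from -0.22 to 0.08 and from -0.06 to 0.18.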
